A study of Mus musculus with 21 samples.

Results

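Genes for potassium channels were compared between the cortex of mice exposed to high-frequency head impact (HF-HI) and the cortex of sham mice, at 24 h after the last impact. The members were the genes whose mouse symbol starts with Kcn, which name the pore-forming and most of the auxiliary subunits of potassium channels. Such a symbol was carried by 39 of the 5544 genes for which values were deposited. How these 5544 genes were chosen is not stated in the sources used here. Shares over them therefore need not hold for all expressed genes. The annotation lists 99 Kcn genes, 94 of them protein-coding, and those beyond the 39 were not analysed here. All animals were male C57BL/6 mice labelled as 12 weeks old. HF-HI mice (11 libraries) received repeated daily impacts to the head under isoflurane, and sham mice (10 libraries) had the same handling and anaesthesia without impacts. The injury is thus given to anaesthetised mice, and both groups share the anaesthesia. Whole pieces of cortex were used for ribosomal RNA-depleted, stranded RNA sequencing, so each value mixes neurons, glia and vessels.

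Potassium channels let potassium leave the cell along its gradient, which pulls the membrane back toward rest. Voltage-gated members end the action potential and set how fast a neuron can fire again, leak and inward rectifier members hold the resting potential, and members gated by calcium or sodium follow ongoing activity. Auxiliary subunits bind the pores and change their gating or their delivery to the membrane. In the cortex most of these genes are used by neurons, whereas Kcnj10 is known for the uptake of potassium by astrocytes and is also used by oligodendrocytes.

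Values were variance-stabilised and on a log2 scale, so a difference of 1 is a doubling and a difference between groups is HF-HI minus sham throughout. Read depth is not given by values of this kind. An estimate of relative depth, from the spacing of values within a narrow band, ranged from 0.580 to 1.26 in sham and from 0.548 to 1.64 in HF-HI. The libraries differed in how their values followed the GC content of a gene's exons, with slopes of -0.23 to 0.0058 log2 units per 10% GC in sham and -0.039 to 0.16 in HF-HI. Differences are therefore also given with that trend removed from each library, named below as GC-removed differences. The mean of 15 neuron markers was 11.5 to 11.7 in sham and 11.9 to 12.0 in HF-HI, with no overlap, and 11 of the 15 were higher. Fewer cells of a type and less RNA per cell cannot be told apart in such samples. Of 6 markers of cortical excitatory neurons 5 were higher, among them Tbr1, the transcription factor of deep-layer neurons, at a sham mean of 9.22. Markers of striatum were also expressed, with a list mean of 10.2 to 10.6 in sham and 9.57 to 10.9 in HF-HI.

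HF-HI mice had higher cortical expression of 16 potassium channel genes and lower expression of 9. Kcnk2, a leak channel opened by membrane stretch, was 1.52-fold higher and had the largest difference of all members, and Kcnc1, a channel of fast-firing neurons, was 1.34-fold higher. The largest decreases, in Kcns2 and Kcnv1, were of subunits that pair with the Kcnb channels. Within Kcna, Kcnh, Kcnj, Kcnt and the electrically silent subunits, called genes went in both directions. With the GC trend removed, Kcna, Kcnh and Kcnj held called genes of both directions, as did the auxiliary subunits. In Kcnj the lower gene was then Kcnj4 in place of Kcnj2. The calls of Kcnt1, Kcnt2, Kcnj2 and Kcnf1 were then lost. The other 14 members did not pass the test. Called genes had a Benjamini-Hochberg adjusted p under 0.05 in limma, fitted over all 5544 genes. The share called was 64.1% of the members and 66.3% of the table, 41.0% and 32.6% for higher genes, and 23.1% and 33.6% for lower genes. The median difference was 0.093 over the members and -0.0086 over the table. Libraries of the groups did not overlap in 2 members, Kcnk2 and Kcnj9, or 5.13%, against 13.5% of the table. With the GC trend removed the groups still did not overlap in Kcnk2, but they did in Kcnj9. The split into higher and lower depended on scaling, as 10 members were higher and 11 lower once the library medians were set equal, in place of 16 and 9, which moved the share of higher genes among those called from 64% to 47.6%. Kcna6, Kcnab3, Kcnf1, Kcnip2, Kcnk1 and Kcnq3 lost their call on that scale, and Kcnj4 and Kcnma1 were called lower.

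**Figure D1:**
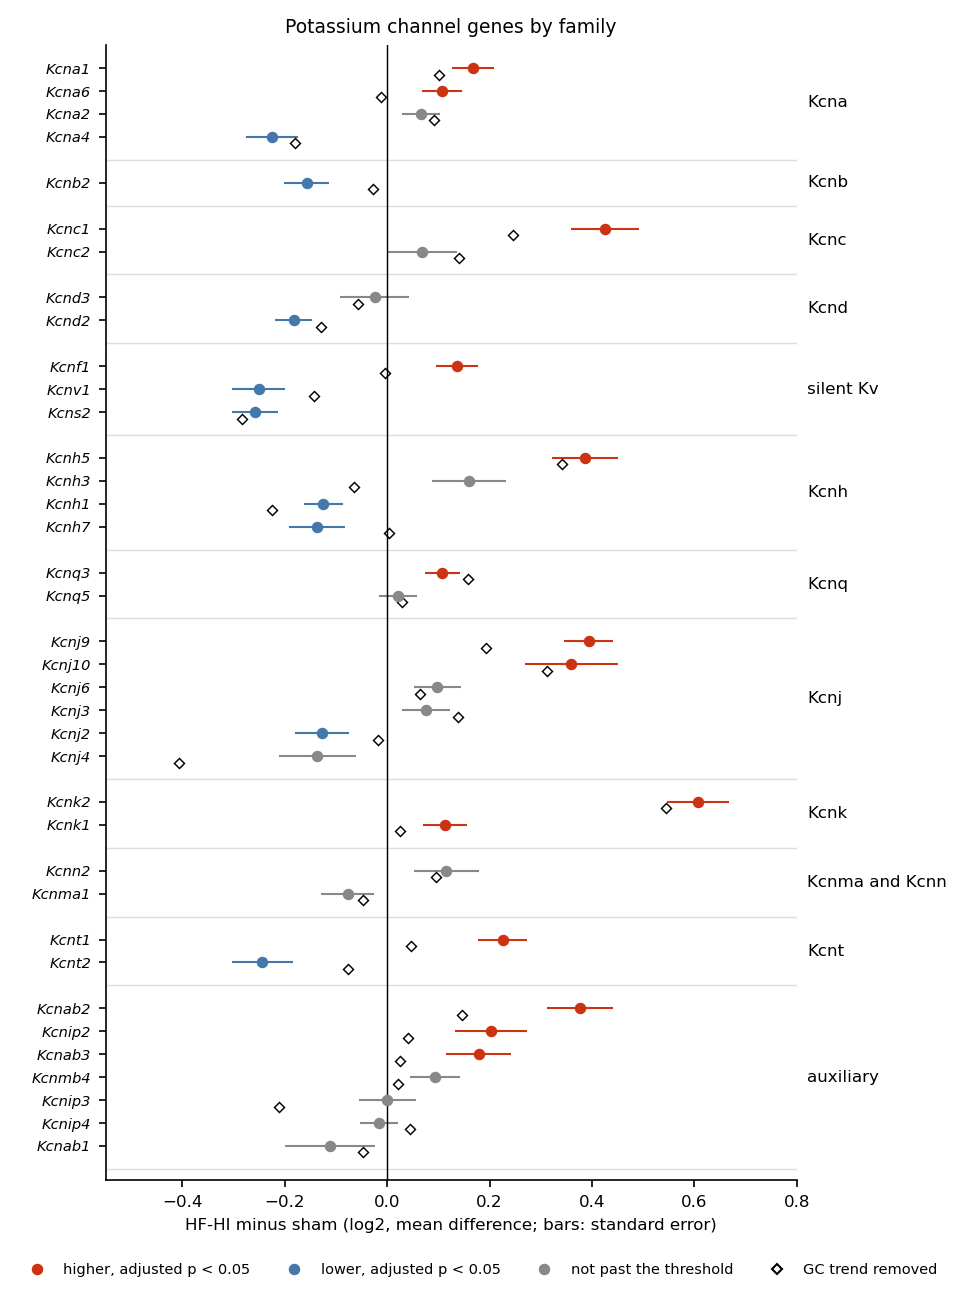
Difference between HF-HI and sham in log2 units on the x axis for 37 members on the y axis, grouped by family, with circles for the mean difference, bars for its standard error, colours for the test at an adjusted p of 0.05 and open diamonds for the GC-removed difference. Kcnk2 at 0.61 and Kcnc1 at 0.43 lie farthest to the right, and the diamond lies nearer to 0 than the circle for most of the called genes.

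With the GC trend removed, 18 members were called, 11 higher and 7 lower, against 60.2% of the table called, 29.2% higher and 31.0% lower. Of the 25 called members 14 kept their call and direction, 9 of them higher and 5 lower. The other 11 lost it, among them Kcna6, Kcnab3, Kcnb2, Kcnf1, Kcnh7, Kcnip2, Kcnj2, Kcnk1, Kcnt1 and Kcnt2. Called only then were Kcna2 and Kcnj3, which were higher, and Kcnip3 and Kcnj4, which were lower. Another 10 members were called on neither scale. Their GC-removed differences were 0.14 for Kcnc2, 0.096 for Kcnn2, 0.065 for Kcnj6, 0.044 for Kcnip4, 0.030 for Kcnq5, 0.020 for Kcnmb4, -0.046 for Kcnma1, -0.047 for Kcnab1, -0.056 for Kcnd3 and -0.065 for Kcnh3. A group of 12 members kept its call in all 21 fits that left out 1 library and under every other setting that kept the gene, except a minimum difference of 0.25 and the neuron marker mean as a covariate. Kcnk2 and Kcns2 are among the genes left out when the lowest quartile was dropped, so that setting gave no value for them. Among these were Kcnk2, Kcnc1, Kcnj9, Kcnh5, Kcnab2 and Kcnj10, which were higher, and Kcns2, Kcnv1, Kcna4, Kcnd2 and Kcnh1, which were lower. The neuron marker mean correlated with the group at r = 0.948, so the condition and this mean cannot be told apart, and with it in the model limma called 0 of the 39 members, with 5 at an unadjusted p under 0.05.

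Voltage-gated pores made up the largest class, with 17 members. Of these 7 (41.2%) were higher and 5 (29.4%) lower, against 32.6% and 33.6% of the table. Kcnb genes encode delayed rectifiers. Kcnb2, which had the lowest level per kilobase of all members, ranged from 9.18 to 9.45 in sham (median 9.34) and from 9.04 to 9.37 in HF-HI (median 9.18), with 6 of 11 HF-HI libraries below every sham library. It differed by -0.16 (adjusted p = 0.0036), and by -0.027 with the GC trend removed, where it was not called.

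Kcns2, Kcnv1 and Kcnf1 encode electrically silent subunits, which form no channel alone and alter the Kcnb channels they join. All 3 were called, and they went in both directions. Kcns2 ranged from 8.74 to 9.03 in sham (median 8.87) and from 8.37 to 8.77 in HF-HI (median 8.64). Only 1 of the 11 HF-HI libraries, replicate 9, reached into the sham range. The difference was -0.26 ± 0.0452 (SE, adjusted p = 3.3e-05), and removal of the GC trend left -0.28. Kcnv1 ranged from 10.53 to 10.98 in sham (median 10.80) and from 10.36 to 10.65 in HF-HI (median 10.54), with 4 HF-HI libraries below every sham library. Its difference was -0.25 (adjusted p = 2.0e-04), and -0.14 with the GC trend removed. Kcnf1 had a difference of 0.14 (adjusted p = 0.00575), which the GC trend took to -0.0052, not called. The 2 silent subunits that fell thus kept their direction with the GC trend removed, and the one that rose did not.

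Kcna genes encode channels that open near rest, many of them along axons. Kcna4, the fast-inactivating member of the family, was the one that fell. It ranged from 9.97 to 10.15 in sham (median 10.05) and from 9.55 to 10.07 in HF-HI (median 9.86), and 9 of 11 HF-HI libraries were below every sham library. Its spread was wider after HF-HI, with an SD of 0.157 against 0.0544 in sham. The difference was -0.22 ± 0.0507 (SE, adjusted p = 5.1e-04), and -0.18 with the GC trend removed. Kcna1, the member with the highest level per kilobase, had a difference of 0.17 (adjusted p = 0.0011), and of 0.10 with the GC trend removed, where it was still called. Kcna6 had a difference of 0.11 (adjusted p = 0.018), and the GC-removed value was -0.012 and not called. Kcna2, which is often found in the same axonal channels as Kcna1, had a difference of 0.065 (adjusted p = 0.125) and was called higher, at 0.091, only with the GC trend removed. Kcna1 and Kcna6 are neighbours on chromosome 6, separated by 61944 bases, and across libraries within the groups their values correlated at r = 0.089 (21 libraries).

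Kcnab genes encode the cytoplasmic beta subunits of the Kcna channels. Kcnab2, the most abundant of them per kilobase, ranged from 11.07 to 11.63 in sham (median 11.38) and from 11.49 to 11.98 in HF-HI (median 11.78). In 10 of 11 HF-HI libraries the value was above every sham library. The difference was 0.38 ± 0.0643 (SE, adjusted p = 2.5e-05), but only 0.15 remained with the GC trend removed, still called. Within the groups its values followed the GC slope of the library more closely than those of any other member, at r = 0.842 over 21 libraries. Kcnab3 ranged from 8.61 to 9.13 in sham (median 8.93) and from 8.81 to 9.40 in HF-HI (median 9.10), and these ranges overlapped over most of their length. Its difference of 0.18 (adjusted p = 0.017) was 0.026 with the GC trend removed and was then not called. Kcnab1 varied more than either, with an SD of 0.215 in sham and 0.223 in HF-HI, and did not pass the test (difference -0.11, adjusted p = 0.269). Kcnab2 shares annotated exon sequence with Gm16334 on its own strand, and reads from that overlap cannot be told apart.

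Kcnc genes encode channels that let interneurons fire at high rates. Kcnc1 ranged from 9.74 to 10.32 in sham (median 10.07) and from 10.21 to 10.70 in HF-HI (median 10.46). In 9 of 11 HF-HI libraries it was above every sham library. The difference was 0.43 ± 0.0666 (SE, adjusted p = 8.3e-06), and 0.25 with the GC trend removed. Kcnc2, the other member, ranged from 10.58 to 11.10 in sham and from 10.53 to 11.03 in HF-HI and did not pass the test (difference 0.069, adjusted p = 0.375). Pvalb, which marks the fast-spiking interneurons that use Kcnc channels, had a difference of -0.069 and was not called. Of 7 interneuron markers 3 (42.9%) were higher and 1 (14.3%) lower, against 32.6% and 33.6% of the table. The higher ones were Slc32a1 at 0.64, Sst at 0.63 and Npy at 0.48, and the lower one was Erbb4 at -0.11. With the GC trend removed these differences were 0.30, 0.44, 0.35 and 0.0047. The part of these markers in the result for Kcnc1 was not tested.

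Kcnd genes encode the A-type channels of dendrites, which damp back-propagating spikes. Kcnd2 ranged from 11.25 to 11.46 in sham (median 11.37) and from 10.98 to 11.31 in HF-HI (median 11.17), and 9 of 11 HF-HI libraries were below every sham library. The difference was -0.18 ± 0.0369 (SE, adjusted p = 1.6e-04), and -0.13 with the GC trend removed. Kcnd3 had a difference of -0.025 (adjusted p = 0.759). The Kcnip genes encode calcium-binding subunits that join these pores. Kcnip2 ranged from 9.44 to 10.11 in sham (median 9.71) and from 9.65 to 10.12 in HF-HI (median 9.91), so that 1 HF-HI library passed the highest sham value. Its difference of 0.20 (adjusted p = 0.014) was 0.041 and not called with the GC trend removed. Kcnip4 ranged from 9.20 to 9.36 in sham (median 9.29) and from 9.13 to 9.47 in HF-HI (median 9.27), with a difference of -0.015. Kcnip3, which also acts as a calcium-dependent transcriptional repressor, had the smallest difference of all members. Its sham range of 8.82 to 9.31 (median 9.07) held the whole HF-HI range of 8.89 to 9.19 (median 9.10), yet its GC-removed difference was -0.21 (adjusted p = 5.7e-04). This gene is rich in GC, at 57.2% of its exon bases.

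**Figure D2:**
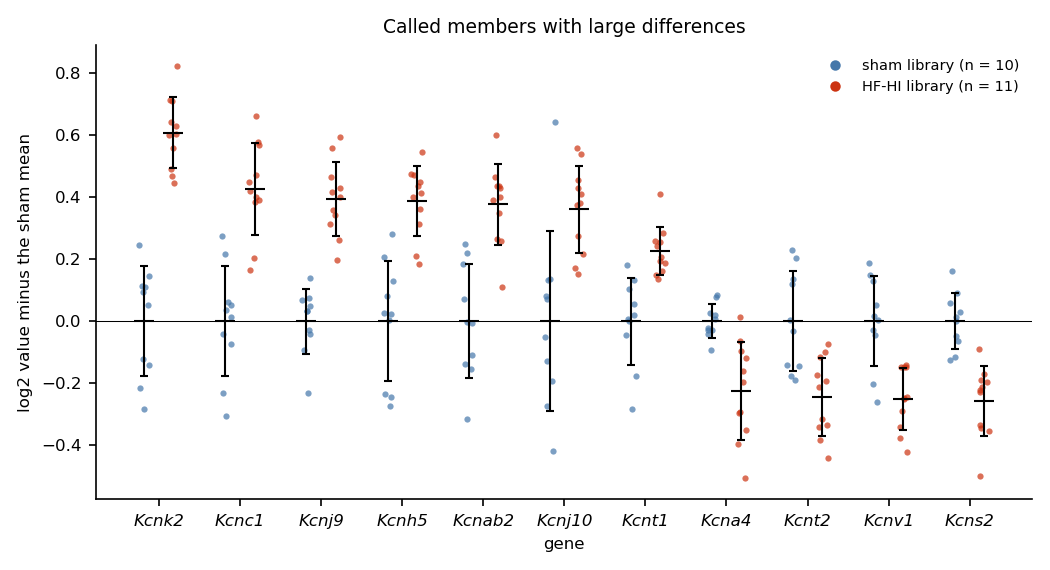
Value of each library minus the sham mean of the gene in log2 units on the y axis, for 11 called members with large differences on the x axis, with points for the 10 sham and 11 HF-HI libraries and bars for the mean and SD of each group. The clouds of Kcnk2 and Kcnj9 do not overlap, and 1 sham point of Kcnj10 lies above all of its HF-HI points.

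Kcnh genes encode the ether-a-go-go family of voltage-gated channels. Kcnh5 was the only one that rose. It ranged from 9.47 to 10.02 in sham (median 9.77) and from 9.93 to 10.29 in HF-HI (median 10.16), with 9 of 11 HF-HI libraries above every sham library. The difference was 0.39 ± 0.0639 (SE, adjusted p = 1.6e-05), and 0.34 with the GC trend removed. Its values did not follow the GC slope of the libraries within the groups (r = 0.053), but the sign turned, to -0.23, with the neuron marker mean as a covariate. Kcnh1 had a difference of -0.12 (adjusted p = 0.0068), which grew to -0.22 (adjusted p = 2.0e-05) with the GC trend removed, so this family held called genes of opposite direction on both scales. Kcnh7, the most highly expressed of the family per kilobase, had a difference of -0.14 (adjusted p = 0.032) and a GC-removed difference of 0.0029. Its call was also lost in 8 of the 21 fits that left out 1 library, namely sham replicates 1, 3, 6 and 10 and HF-HI replicates 1, 4, 6 and 8, where the difference was between -0.13 and -0.12. Kcnh3 ranged from 9.54 to 10.11 in sham (median 9.83) and from 9.65 to 10.14 in HF-HI (median 10.05) and did not pass the test (difference 0.16, adjusted p = 0.055). The GC-removed difference of Kcnh3 was -0.065, and leaving out sham replicate 2, 8 or 9 or HF-HI replicate 9 or 11 brought it past the threshold at 0.17 to 0.19. Mcrs1 lies on the opposite strand with overlapping exons and had a difference of -0.28.

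Kcnq genes encode the channels of the M-current, which muscarinic receptors close. Kcnq3 ranged from 12.26 to 12.54 in sham (median 12.38) and from 12.40 to 12.58 in HF-HI (median 12.49), with 4 of 11 HF-HI libraries above every sham library. It had a difference of 0.11 (adjusted p = 0.0073) and a larger GC-removed difference of 0.16 (adjusted p = 6.4e-04). Kcnq5 ranged from 10.73 to 11.05 in sham (median 10.87) and from 10.75 to 11.01 in HF-HI (median 10.89), one range inside the other, with a difference of 0.021 (adjusted p = 0.640).

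Inward rectifiers, from the Kcnj genes, hold the resting potential. Of the 6 members 2 (33.3%) were higher and 1 (16.7%) was lower, against 32.6% and 33.6% of the table, and 3 were not called. Kcnj3, Kcnj6 and Kcnj9 encode subunits of the channels that G protein beta and gamma subunits open behind inhibitory receptors. Kcnj9 ranged from 9.38 to 9.75 in sham (median 9.64) and from 9.81 to 10.20 in HF-HI (median 10.01). All 11 HF-HI libraries were above every sham library. The difference was 0.39 ± 0.0477 (SE, adjusted p = 2.9e-07), and 0.19 with the GC trend removed. On that scale the groups overlapped, with sham replicate 7 at 9.85 and HF-HI replicate 2 at 9.78. Kcnj3 was more abundant than Kcnj9 and Kcnj6 per kilobase and had a difference of 0.075 (adjusted p = 0.157), called higher only with the GC trend removed, at 0.14. Kcnj6, the lowest of these, had a difference of 0.098 (adjusted p = 0.065), and it passed the threshold at 0.12 when sham replicate 2 or 8 was left out.

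Kcnj10 lies 11891 bases from Kcnj9 on chromosome 1 and was also higher. It ranged from 9.07 to 10.13 in sham (median 9.49) and from 9.64 to 10.04 in HF-HI (median 9.87). Its highest value of all 21 was a sham library, replicate 4, and the other 9 sham libraries, of which the highest was 9.62, were below every HF-HI library. The difference was 0.36 ± 0.0902 (SE, adjusted p = 0.0013), and 0.31 with the GC trend removed. Without sham replicate 4 it was 0.43 (adjusted p = 1.7e-05). Within the groups Kcnj9 and Kcnj10 did not rise together (r = -0.23, 21 libraries). Of 14 astrocyte markers 7 (50%) were higher and 4 (28.6%) lower. Their list mean was 11.02 to 11.21 in sham and 11.12 to 11.24 in HF-HI. Of 10 oligodendrocyte markers 2 (20%) were higher and none lower. These shares stand beside 32.6% higher and 33.6% lower over the table. The part of these markers in the result for Kcnj10 was not tested.

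Kcnj2 and Kcnj4 encode strong inward rectifiers. Kcnj2 had a difference of -0.13 (adjusted p = 0.036), and of -0.017 with the GC trend removed. Its call was lost in 7 of 21 fits, those without sham replicate 4, 6 or 9 or HF-HI replicate 2, 3, 5 or 9, at differences between -0.12 and -0.098. Kcnj4 ranged from 9.67 to 10.30 in sham (median 9.87) and from 9.46 to 10.01 in HF-HI (median 9.84), and the test was not passed (difference -0.14, adjusted p = 0.108). It has the most GC-rich exons of the 39 members, at 59.3%, and its GC-removed difference was -0.41 (adjusted p = 6.8e-06). It was also called lower with library medians centred, at -0.19, with quantile normalization, at -0.18, with relative depth as a covariate, at -0.22, and without sham replicate 10, at -0.17. The list mean of striatum markers ranged over 9.57 to 10.9 in HF-HI libraries, and its part in the values of Kcnj4 was not tested.

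Leak channels of the tandem-pore Kcnk family have no voltage gate. Kcnk2, which is opened by stretch, heat and polyunsaturated fatty acids, ranged from 8.19 to 8.72 in sham (median 8.55) and from 8.92 to 9.30 in HF-HI (median 9.08). All 11 HF-HI libraries were above every sham library. The difference was 0.61 ± 0.0611 (SE, adjusted p = 2.2e-08), and 0.54 (adjusted p = 9.2e-08) with the GC trend removed. Within the groups its values did not follow the GC slope (r = 0.141), and over the 21 fits that left out 1 library the difference was between 0.58 and 0.63. Kcnk1, the other member, had a difference of 0.11 (adjusted p = 0.026), which was 0.024 and not called with the GC trend removed, and its call was lost without sham replicate 9 or 10, at 0.099 and 0.098.

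Calcium-activated channels did not pass the test. Kcnma1, the large-conductance pore, had a difference of -0.077 (adjusted p = 0.192), and Kcnmb4, its neuronal beta subunit, one of 0.093 (adjusted p = 0.096). Kcnmb4 passed the threshold at 0.11 without sham replicate 8 or HF-HI replicate 5, and at 0.12 (adjusted p = 0.036) with relative depth as a covariate. Kcnn2, a small-conductance channel of the afterhyperpolarisation, ranged from 8.47 to 8.94 in sham (median 8.53) and from 8.54 to 9.05 in HF-HI (median 8.69). Its difference was 0.12 (adjusted p = 0.110), and without sham replicate 4, the highest of the sham libraries, it was 0.15 and past the threshold (adjusted p = 0.021). With relative depth as a covariate Kcnn2 was called higher as well, at 0.19 (adjusted p = 0.0031).

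Sodium-activated channels, Kcnt1 and Kcnt2, went in opposite directions in the values as deposited. Kcnt1 ranged from 10.09 to 10.55 in sham (median 10.39) and from 10.51 to 10.78 in HF-HI (median 10.58), with 8 of 11 HF-HI libraries above every sham library. The difference was 0.23 ± 0.0475 (SE, adjusted p = 2.5e-04). Kcnt2 ranged from 10.41 to 10.83 in sham (median 10.59) and from 10.17 to 10.53 in HF-HI (median 10.39), with 7 HF-HI libraries below every sham library. The difference was -0.24 ± 0.0592 (SE, adjusted p = 9.96e-04). Both calls were lost with the GC trend removed, at 0.046 and -0.076. Kcnt1 has 55.8% GC in its exons, whereas Kcnt2 has 36.5%, the lowest of all members.

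**Figure D3:**
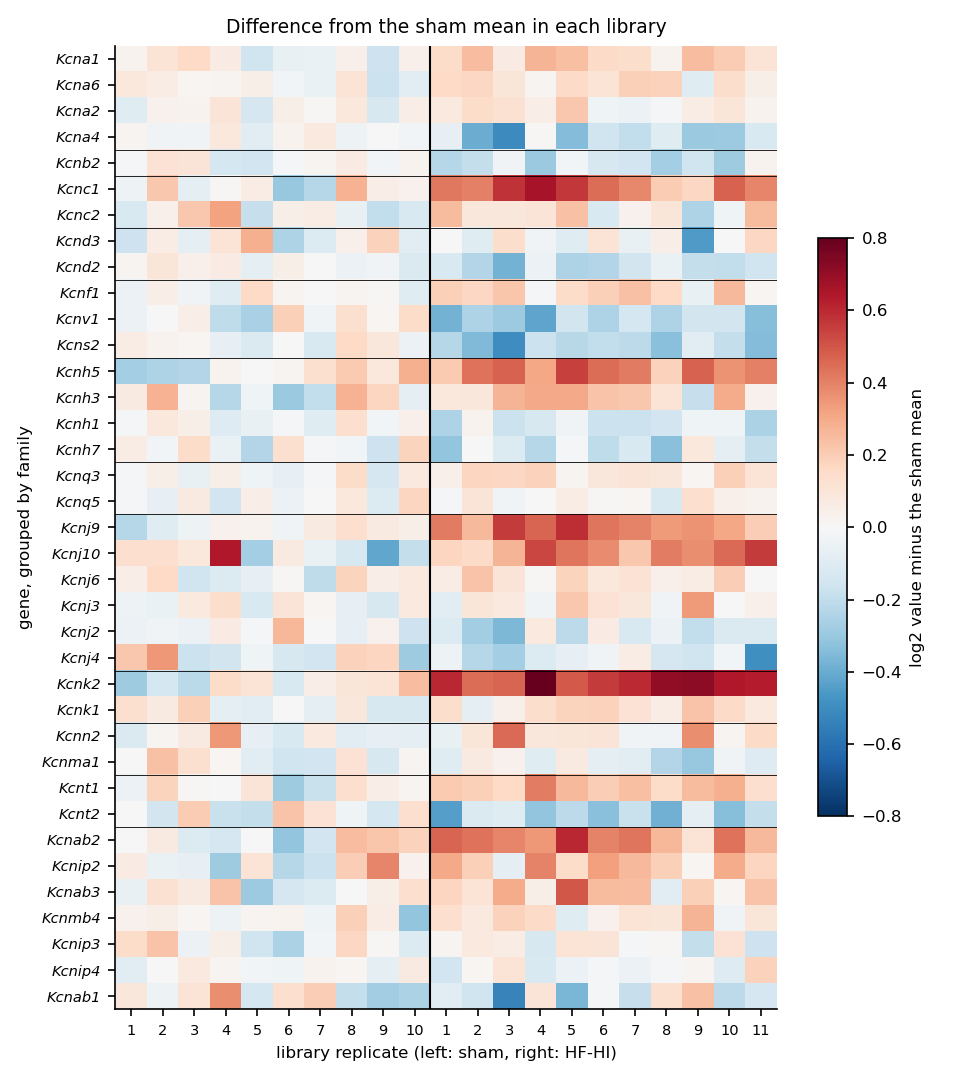
Each library minus the sham mean of the gene in log2 units, as colour from blue (lower) to red (higher), for 37 members grouped by family on the y axis and the 10 sham and 11 HF-HI libraries on the x axis, with a vertical line between the groups. The rows of Kcnk2 and Kcnj9 are red in all 11 HF-HI libraries, and sham replicate 4 stands out in Kcnj10.

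Taking all 39 members together, the nearest library of each of the 21 libraries belonged to the same group. This was seen in the values as deposited, where 66.3% of the table was called, and other sets of genes were not compared. Members differed in how tightly the libraries of a group agreed. The SD within sham was 0.0544 in Kcna4 and 0.0549 in Kcnip4, and it reached 0.291 in Kcnj10. The median SD over the members was 0.133 in sham and 0.115 in HF-HI, against 0.111 and 0.0922 over the table.

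Levels were compared between genes after division by exon length, as log2 values per kilobase. Kcna1 had the highest sham level, 10.2, and lay well above the next gene, Kcnd2, at 8.997. After these came Kcnab2 and Kcnh7, both at 8.90, which did not differ beyond their SD of 0.183 and 0.134, as held for Kcnj4 at 8.84 and Kcnj3 at 8.78. At the other end were Kcnn2 at 5.69, Kcnj6 at 5.64 and Kcnb2 at 5.41, and Kcnk2 was the fourth lowest, at 6.17. The median member was at 7.63 and the median gene of the table at 7.25. The differences did not follow the level (Spearman rho -0.095 over 39 members). In sham Kcnk2 lay just below Kcnj2 at 6.25, Kcns2 at 6.38 and Kcnd3 at 6.46, and in HF-HI, at 6.78, it lay above all 3.

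**Figure D4:**
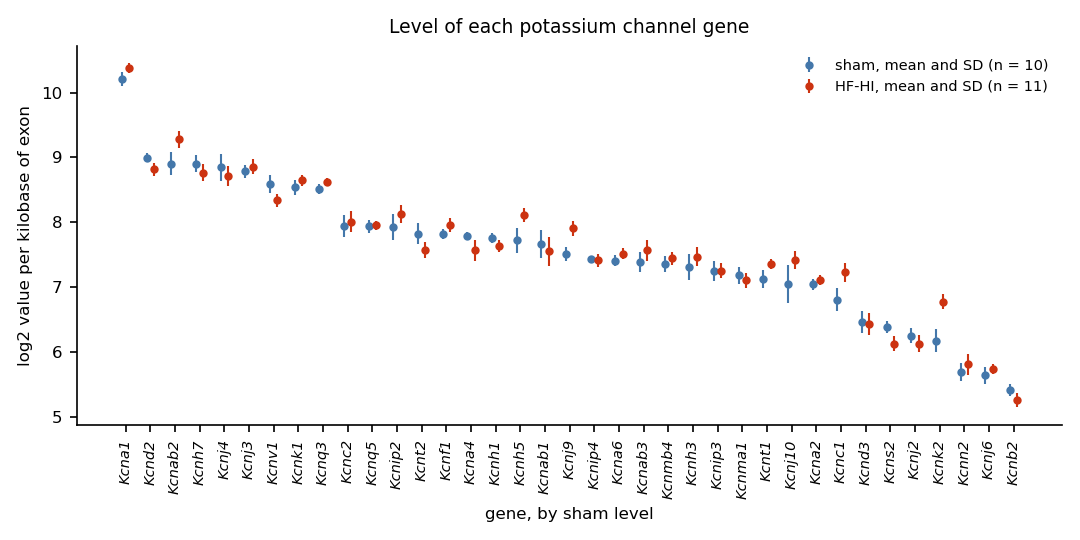
Level of each of 37 members on the y axis as log2 value per kilobase of exon, ordered on the x axis by the sham level, with points for the mean and bars for the SD of the 10 sham and 11 HF-HI libraries. Kcna1 stands above the rest at 10.2 in sham, and the gap between groups is widest in Kcnk2 and Kcnc1.

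Exonic GC content was higher in most of the members that rose than in most of those that fell. Of the 16 higher members 13 had more than 50% GC, of the 9 lower members 1 did, and of all 39 members 18 did. The median was 53.3% in the higher and 41.3% in the lower members. Spearman's rho between the difference and GC content was 0.630 over the 39 members and 0.480 over the 5539 genes with a GC content, and it was 0.136 for the GC-removed differences of the members. These points share the libraries and their GC slopes, so the correlations are descriptions across genes. In 6 members the sign changed when the trend was removed. Within the groups, values of Kcnab2, Kcnh3 and Kcnc1 correlated with the GC slope of the library at r = 0.842, 0.838 and 0.827, whereas Kcnj3 did so at r = -0.67 (21 libraries each). Removal of the trend takes away any biological difference that follows GC content as well.

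**Figure D5:**
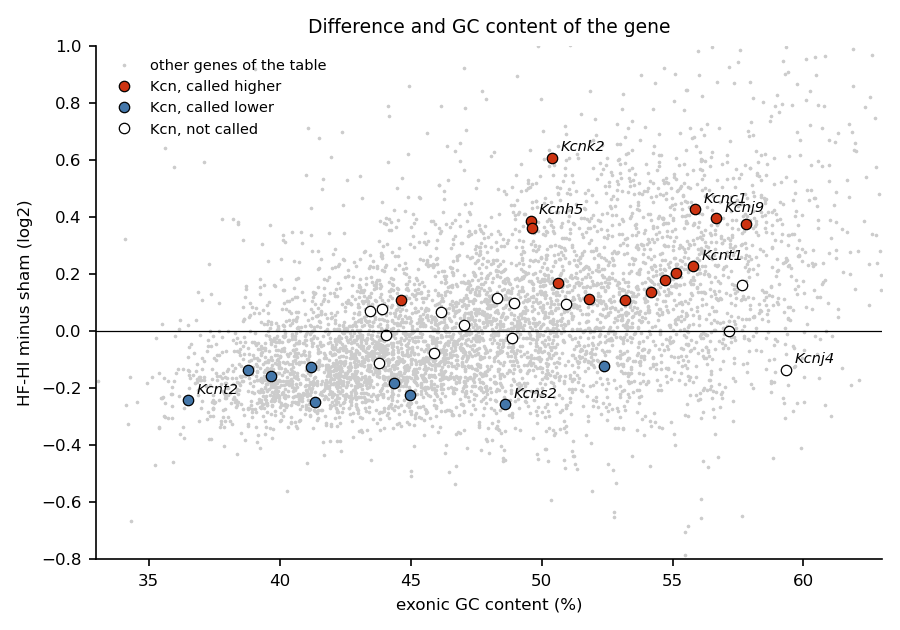
Difference between HF-HI and sham in log2 units on the y axis against the GC content of the exons in percent on the x axis, with grey points for the table and circles for 37 members, coloured by their call; 59 genes lie outside the axes. The members called lower sit mostly at the left, around a median of 41.3% GC, and those called higher at the right, around 53.3%.

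Promoter sequences show whether this split by GC content extended to the bases before the gene start. Of the 39 members 28 matched the RefSeq promoter table (GRCm38.p6), with 43 start sites. Sequence is printed for 4 called members with a single listed start, the 2 with the largest increase and the 2 with the largest decrease. Kcnk2, Kcns2 and Kcnv1, whose differences were larger in size, had no single listed start and are not printed. Each line gives the 250 bases before the start, 5′ to 3′ on the strand of the gene, with CG dinucleotides in capitals. The windows are chr7:46396218-46396467 (+) for Kcnc1, chr1:172329323-172329572 (-) for Kcnj9, chr1:140245468-140245717 (+) for Kcnt2 and chr2:107290339-107290588 (+) for Kcna4.
Kcnc1: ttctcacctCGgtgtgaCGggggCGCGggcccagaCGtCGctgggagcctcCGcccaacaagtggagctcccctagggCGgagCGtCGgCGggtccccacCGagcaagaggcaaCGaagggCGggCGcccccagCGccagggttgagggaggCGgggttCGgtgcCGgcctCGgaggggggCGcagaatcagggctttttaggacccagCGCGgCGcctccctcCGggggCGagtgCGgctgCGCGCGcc
Kcnj9: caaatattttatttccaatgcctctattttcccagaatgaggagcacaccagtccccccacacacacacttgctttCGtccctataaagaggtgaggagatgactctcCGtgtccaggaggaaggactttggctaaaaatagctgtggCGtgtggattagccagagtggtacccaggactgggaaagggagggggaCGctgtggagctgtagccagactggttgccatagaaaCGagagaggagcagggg
Kcnt2: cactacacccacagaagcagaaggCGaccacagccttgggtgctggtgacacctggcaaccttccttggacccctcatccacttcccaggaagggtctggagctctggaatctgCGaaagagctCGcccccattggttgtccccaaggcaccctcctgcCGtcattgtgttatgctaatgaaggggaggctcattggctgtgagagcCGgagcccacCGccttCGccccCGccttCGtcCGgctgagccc
Kcna4: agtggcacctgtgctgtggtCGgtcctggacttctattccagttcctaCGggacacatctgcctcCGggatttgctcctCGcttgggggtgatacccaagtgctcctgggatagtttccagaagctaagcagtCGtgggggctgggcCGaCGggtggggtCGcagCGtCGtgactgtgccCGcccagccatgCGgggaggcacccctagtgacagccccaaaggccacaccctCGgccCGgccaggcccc

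The window of Kcnc1 holds 30 CG dinucleotides and that of Kcnj9 holds 5, although both genes rose. Those of Kcnt2 and Kcna4, which fell, hold 10 and 14. Over all windows of 250 bases the median count was 8 in the 15 starts of higher members, which belong to 10 genes. It was 15 in the 6 starts of lower members, from 6 genes, and 6 in the 32851 starts of the table. The median GC content of these windows was 58.8%, 65.4% and 52.4%. Genes with several starts count more than once. Counted by start, the promoters did not repeat the order seen in the exons. The GC box core GGGCGG, searched on both strands, was present in 18 of the 43 windows of members, in 6 of 15 of higher and 5 of 6 of lower members, and in 32.7% of all windows. Of the printed windows those of Kcnc1 and Kcna4 hold it. The cyclic AMP response element TGACGTCA was found in 0 of 43 windows of members and in 1.55% of all windows, and the E-box CACGTG in 3 of 43 and in 6.02%. A match describes these letters and not a bound site.

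Proteins that anchor or accompany the channels also moved in both directions. Of 19 listed genes 15 were measured, 4 (26.7%) of them higher and 7 (46.7%) lower, against 32.6% and 33.6% of the table. Dlg4, the postsynaptic scaffold that binds Kcna channels, had a difference of 0.48, Cntn2, an axonal adhesion protein at the juxtaparanode, one of 0.44, and Ank3, which organises the axon initial segment, one of 0.34. The largest decreases were -0.30 for Dpp10, a partner of the Kcnd channels, -0.26 for Vapa, which tethers the membrane to the endoplasmic reticulum, and -0.22 for Adam22, a receptor of Lgi1. These 6 kept their call with the GC trend removed. Dpp6, the other dipeptidyl peptidase-like partner of Kcnd channels, had a difference of 0.29 and so was called in the direction opposite to Dpp10.

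Of 16 regulators of potassium channels 9 (56.25%) were higher and 3 (18.75%) lower, against 32.6% and 33.6% of the table. Gnb1, a G protein beta subunit that opens the Kcnj3, Kcnj6 and Kcnj9 channels, had a difference of 1.09, more than any member. Csnk2b, the regulatory subunit of a casein kinase that acts on channel-bound calmodulin, had a difference of 0.77, and Chrm1, the muscarinic receptor that closes Kcnq channels, one of 0.62. Calm2, a calmodulin gene, had a difference of -0.15 and the calcineurin subunit Ppp3ca one of -0.081, and both calls were lost with the GC trend removed. Calm3, which encodes the same protein as Calm2, was not called at -0.0039, but it was called lower with the GC trend removed, at -0.26 (adjusted p = 3.6e-04), the lowest value of the list on that scale.

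Pumps and transporters that build the potassium gradient had 6 higher (50%) and 1 lower (8.33%) of 12 measured genes. The shares of the table were 32.6% and 33.6%. Atp1b2, the glial beta subunit of the sodium pump, had a difference of 0.69, and Slc12a5, the neuronal potassium chloride exporter, one of 0.34. With the GC trend removed these were 0.59 and 0.096, both still called. Slc12a2, the chloride importer, was the one that fell, by 0.16, and lost its call with the GC trend removed. These shares stand beside 66.3% of the table called, and the lists were drawn up with earlier results of these data known.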

How the data were processed

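Cortex RNA of 10 sham and 11 HF-HI samples was sequenced by the authors, who aligned reads to mm10 with STAR, counted transcripts with eXpress and deposited log2 values from the variance-stabilising transformation of DESeq2 in 1 table of 5544 genes. Neither counts nor depth are given, so no count model was used, and strand settings of the counting are not given in the sources used here. No column of another sample was set aside (0 columns).

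Symbols, exon lengths and exonic GC content came from GENCODE (GRCm38) and matched 5539 of the 5544 IDs. Groups came from the sample titles. The labels do not say that each library was 1 animal, so p-values measure the spread between libraries. HF-HI was compared with sham by limma (3.58.1, R 4.3.3; lmFit and eBayes with trend) over all genes, with a Benjamini-Hochberg threshold of 0.05. For the GC-removed fit a lowess curve (span 0.3) on GC content was subtracted from the deviations of each library. In data drawn with known shifts the fit recovered 83 of 100 genes at 0.25 and 97 of 100 at 0.5, with 6 false calls. These draws were independent between genes and held no GC slope of a library. They therefore cannot show how many calls follow GC content. Levels between genes were the log2 value minus log2 of exon kilobases.

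Values of 4 genes, 2 of them members, are not reported here, though counts and medians include them. The members and the lists of partners and markers were chosen with earlier results of these data known. Library values were given for the 12 called members with the largest absolute difference, the largest of each family, the members that changed call or sign on GC removal (at most 6, largest first) and the 3 smallest. Alternatives were an adjusted p of 0.1, a minimum difference of 0.25, no trend in eBayes, centred medians, quantile normalization, no lowest quartile, the replicate block, GC removal with and without the block, GC and length removal, a neuron marker covariate and each library left out. A depth covariate and a fit without the 3 libraries of relative depth under 0.6 were chosen after seeing the data. Python 3.11.15 and matplotlib 3.10.9 made the tables and plots.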

Additional observations from a re-analysis of the deposited data

Results flagged for a closer look

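In 3 of the 39 members 1 sham library stood apart from the other 9 by Dixon's test, where chance marks about 1 in 20 groups. Groups of 11 libraries were not tested. Kcnj10 was highest in sham replicate 4, at 10.13, with the next value at 9.622. Kcnn2 was also highest in sham replicate 4, at 8.94 against 8.671. Kcnmb4 was lowest in sham replicate 10, at 8.768 against 9.044, and without that library its difference was 0.058 (limma, adjusted p = 0.212).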

How the results depend on the processing

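The replicate block gave 22 called members, 14 higher and 8 lower. Same-numbered libraries did not deviate together, with r over 0.1 in 4 of 10 pairs (range -0.31 to 0.36) and 0 libraries closest to their own number, so the numbers were not used as pairs. With the block Kcnab3, Kcnh7 and Kcnk1 lost their call, and no other call changed. Leaving out 1 library gave 23 to 28 called members. A minimum difference of 0.25 left 1433 genes of the table, 9 members (7 higher, 2 lower), 6 accessory genes and 7 regulators. With medians centred 10 members were higher and the median was 0.041. Without the lowest quartile of genes the medians of Kcnj, Kcnk and the silent subunits were 0.22, 0.11 and -0.057. GC removal took the median of all members to 0.026, of Kcnk to 0.28, of auxiliary subunits to 0.026 and of silent subunits to -0.14. With GC removal and the replicate block together 10 members were higher, and these medians were 0.023, 0.28, 0.016 and -0.13. Removal of GC and length trends gave 0.017 over all members, 0.0035 for Kcna, -0.070 for Kcnh, 0.017 for Kcnq and -0.12 for silent subunits. With the neuron marker mean as a covariate limma called 10 genes of the table (1029 at an unadjusted p under 0.05) and 0 members, 0 of them higher and 0 lower (5 at an unadjusted p under 0.05), 0 accessory genes, 0 regulators and 1 gradient gene, and the medians of Kcnb, Kcnd, Kcnh, auxiliary and silent subunits were 0.047, 0.048, -0.21, 0.27 and -0.15. The sign turned under GC removal for Kcna6 (-0.012), Kcnf1 (-0.0052), Kcnh7 (0.0029), Kcnip3 (-0.21), Kcnh3 (-0.065) and Kcnip4 (0.044). With the block added it turned for Kcna6 (-0.012), Kcnh7 (0.016), Kcnip3 (-0.20), Kcnh3 (-0.061) and Kcnip4 (0.026), and with length added for Kcna6 (-0.029), Kcnip3 (-0.15), Kcnip4 (0.098), Kcnh3 (-0.078) and Kcnq5 (-0.00041). With the neuron covariate it turned for Kcnh5 (-0.23) and for 7 members that had not been called, Kcna2 (-0.068), Kcnd3 (0.116), Kcnj3 (-0.047), Kcnj4 (0.229), Kcnma1 (0.128), Kcnn2 (-0.0052) and Kcnq5 (-0.127). Relative depth as a covariate, chosen after seeing the data, left 24 members called, without Kcna6, Kcnh7, Kcnip2 and Kcnk1 and with Kcnj4, Kcnmb4 and Kcnn2. Without the 3 libraries of lowest relative depth 24 were called as well, without Kcnj2 and Kcnk1 and with Kcnh3. Apart from the smaller number of genes tested without the lowest quartile, the cause of these changes was not tested. Depth limits the lowest members most and is not known.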
